A study of Homo sapiens with 6 samples.

Results

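The transcriptome described here is that of irradiated control HK-2 cells, the group labelled IR+NC-LV. It comprised 3 of the 6 bulk RNA-seq libraries of the study, chosen by their labels alone, and each of its genes was described by read count and by TPM, which divides a count by gene length and rescales each library to an equal total. HK-2 is a human proximal tubular cell line immortalized with papillomavirus oncogenes, which are known to act on p53 and RB. The cells carried a negative control lentivirus, were selected with puromycin after GFP fluorescence was seen, received a single X-ray dose of 8 Gy and were harvested on day 7. The study irradiated the cells to induce senescence and used these libraries as the control for PRDM16 overexpression, a comparison that is not made here. All 3 libraries carried the virus and the dose, so the parts of the cell line, the lentivirus and the irradiation in any level below cannot be told apart. The labels number the libraries 1 to 3 and do not say whether they came from separate cultures, so the spread between them may be technical.

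Proximal tubule cells reabsorb filtered solutes through an apical brush border. Their differentiated state depends on HNF4 and related transcription factors, on the endocytic receptors megalin and cubilin, and on sodium-coupled transporters, and they make glucose and burn fatty acids. Injured tubule cells lose much of this, switch on genes such as HAVCR1 and LCN2 and can secrete chemokines. Senescent cells are known for a lasting arrest of the cell cycle together with a secretory program of cytokines, proteases and growth factors.

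The libraries held 16659853, 21154634 and 13407074 counts for replicates 1, 2 and 3. Entries sharing a gene name were summed, which gave 34644 names from 38648 entries. A name was called expressed when its mean TPM was at least 1 and every library held at least 10 counts. By that rule 13605 names were expressed, with a median of 21.5 TPM, and together they held 99.5% of all TPM. A further 9121 names had 0 counts in all 3 libraries. Levels above 100 TPM were reached by 2032 names and levels above 1000 TPM by 117 names. Between 626 and 719 names were needed to hold the upper 50% of a library's TPM. Copies on scaffolds outside the assembled chromosomes held 0.403% to 0.442% of the counts.

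The most abundant transcripts were those of glycolysis, the cytoskeleton, ribosomes and iron storage, with a single secreted cytokine among them. GAPDH, a glycolytic enzyme, led with 7349, 7738 and 8894 TPM in replicates 1, 2 and 3. TMSB4X, which binds actin monomers, followed with 8195, 7473 and 5981 TPM, so that its order against GAPDH differed between libraries. EEF1A1, ACTB and FTL, the ferritin light chain, had means of 7140 ± 128, 6136 ± 151 and 5841 ± 73.0 TPM (SD, n = 3). The chemokine CXCL8 ranked 6 among all names, with 5338, 5890 and 4015 TPM. Of the 25 highest names, 12 coded ribosomal proteins, led by RPLP0 at 5020 ± 25.2 TPM and RPL12 at 4211 ± 116 TPM (SD, n = 3). The remaining names were TMSB10, MYL6, TUBA1B, ACTG1, HSP90AA1, the metallothionein MT2A and HSPA8. The 25 names held 10.7% of all TPM.

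Lists of known genes were then read against this range. Of 41 lists with listed members, 23 had a median above that of all expressed names. Among the 35 lists that are not markers of other tissues, medians ran from 0.165 TPM for other nephron segments to 1099 TPM for cytosolic ribosomal proteins, as the plot of levels by gene list shows.

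**Figure D1:**
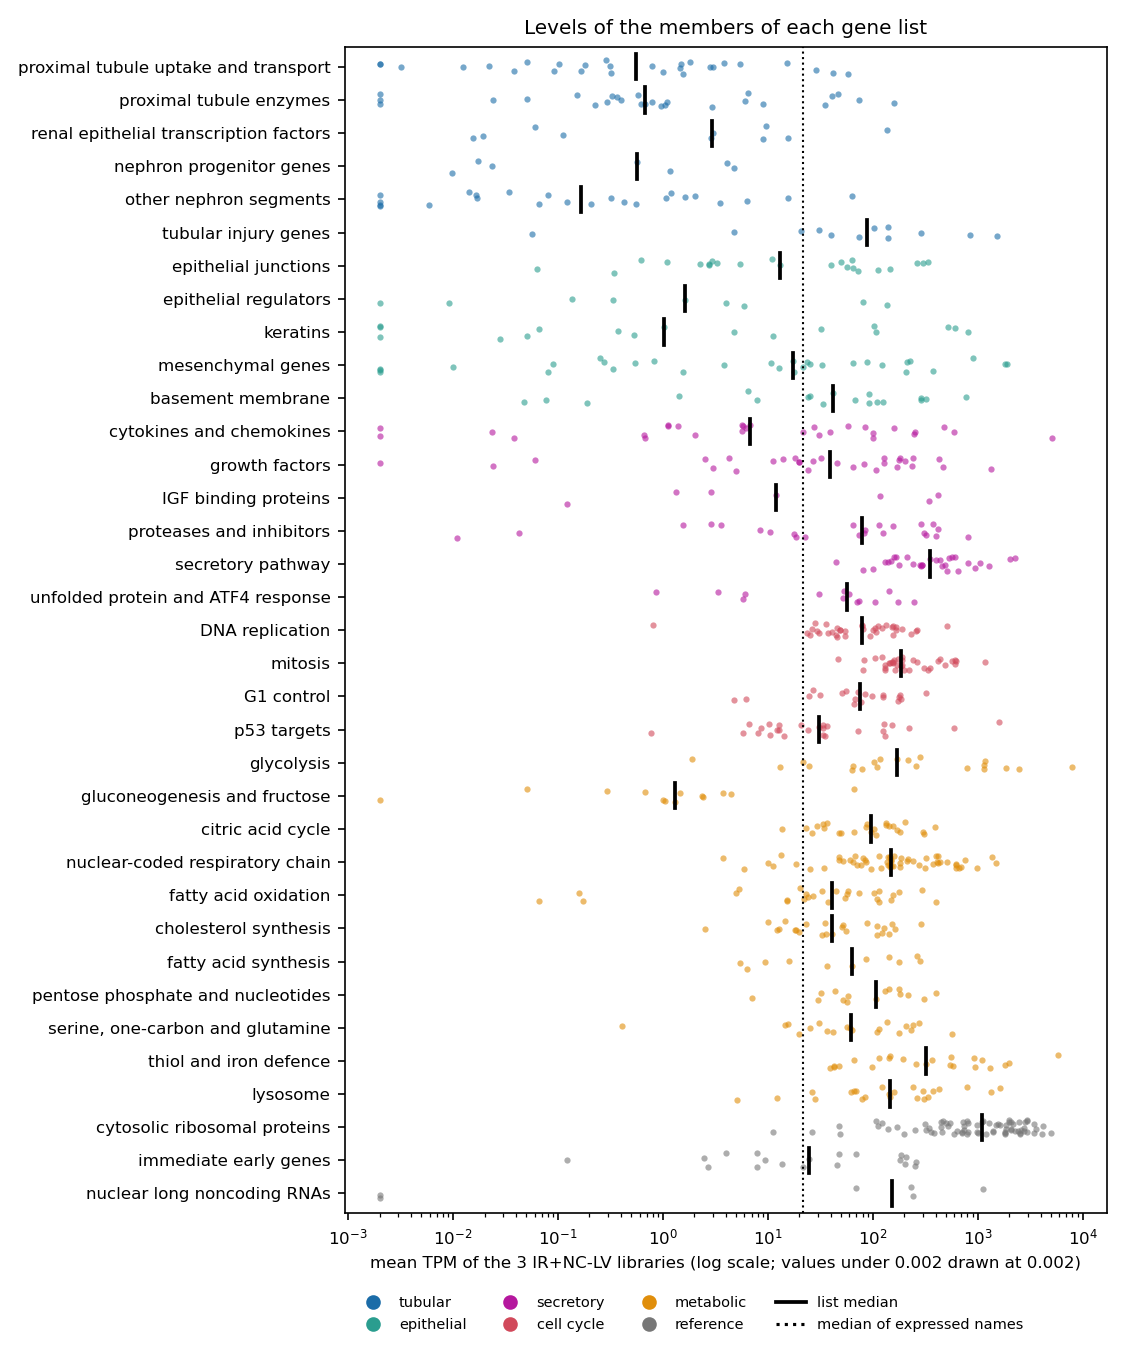
Mean TPM over the 3 IR+NC-LV libraries (horizontal axis, log scale) of every member of 35 gene lists (rows), with points coloured by programme, a black bar at each list's median and a dotted line at the median of all expressed names, 21.5 TPM. The mitosis and secretory pathway lists lie to the right of the line, whereas the proximal tubule lists spread from 0 to over 100 TPM with medians under 1.

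Genes of proximal tubule identity were held in part. PAX8, a transcription factor of the renal epithelial lineage, had 135, 129 and 145 TPM and its counts differed by no more than counting error (adjusted p = 0.55, chi-square test of homogeneity over all names tested). HNF4G stood at 8.97 ± 1.08 TPM and PAX2 at 3.02 ± 0.108 TPM (SD, n = 3). HNF4A, a factor that drives much of the mature proximal tubule program, was close to absent, with a mean of 0.0156 TPM from 2 counts over the 3 libraries.

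Of 28 genes for proximal tubule uptake and transport, 12 were expressed and the list median was 0.556 TPM. The highest were the drug efflux pump ABCB1 at 59.8, 59.7 and 55.0 TPM, the endocytic adaptor DAB2 at 40.6, 41.6 and 43.6 TPM, and the efflux pump ABCC4 at 27.8, 26.1 and 31.8 TPM. SLC4A4, which carries bicarbonate out across the basolateral membrane, had a mean of 15.1 ± 0.625 TPM (SD, n = 3). These 4 were the only members at 10 TPM or more. The endocytic receptor megalin, coded by LRP2, had 1 count in all 3 libraries together, and its partner cubilin, coded by CUBN, had 22, 24 and 23 counts, a mean of 0.321 TPM. The phosphate transporter SLC34A1 stood at 0.316 TPM and the glucose transporter SLC5A2 at 0.791 TPM. SLC5A1 and SLC22A8 had 0 counts, which allows at most 0.143 and 0.337 TPM in the shallowest library (3 counts, counting error only). Checked against its defining markers, the labelled cell type held PAX8 and 12 of 28 transport genes. By the same rule 13605 of all 34644 names were expressed, so that count alone does not speak for a proximal tubule identity. SLC1A1, AMN and SLC34A3 were expressed as well, at 5.44, 1.81 and 1.47 TPM, whereas LRP2, CUBN, SLC34A1 and SLC5A2 were below 1 TPM.

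The brush-border and metabolic enzymes of the proximal tubule gave the same mixture. Of 27 members, 10 were expressed, where 13605 of all 34644 names were, and the list median was 0.674 TPM. GPX3, the secreted glutathione peroxidase made by this segment, had 151, 153 and 178 TPM. GGT1, which cleaves extracellular glutathione, had 74.3, 77.0 and 71.7 TPM. DPP4, UGT2B7 and the scaffold protein PDZK1 stood at 46.8 ± 4.26, 41.0 ± 1.46 and 35.4 ± 2.64 TPM (SD, n = 3). ANPEP, a classical brush-border peptidase, had 3, 4 and 2 counts. CYP4A11, G6PC1 and HAO2 had 0 counts in all 3 libraries, which allows at most 0.272, 0.181 and 0.243 TPM.

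Genes of other nephron segments were lower still, with a list median of 0.165 TPM over 24 members, 8 of them expressed. UMOD of the thick ascending limb, AQP2 and SCNN1B of the collecting duct, and PVALB, which has 2 listed copies, had 0 counts. PODXL at 63.9 TPM and SYNPO at 15.7 TPM, known from podocytes and also present in other cell types, were the only members at 10 TPM or more. Among 7 nephron progenitor genes, SALL1 at 4.72 TPM, SIX2 at 4.09 TPM and OSR1 at 1.17 TPM were the highest, and WT1 and EYA1 had 1 and 2 counts in all.

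Injury genes were abundant. Of 12 members, 11 were expressed and 10 reached 10 TPM, with a list median of 88.0 TPM. The matrix phosphoprotein SPP1 had 1601, 1692 and 1309 TPM, and the siderophore-binding protein LCN2 had 815, 927 and 809 TPM. HAVCR1, the kidney injury molecule, had 143, 145 and 131 TPM. CDH6, a cadherin of developing and injured proximal tubule, had 65.3, 67.5 and 89.7 TPM. VCAM1 and SOX9 were lower, at 20.5 and 4.74 TPM, and PROM1 had 4 counts in all. Counts of 9 of the 11 tested members differed between the libraries beyond counting error, where 25.9% of all tested names did, and 7 of the 11 expressed members were lower in replicate 3 than in the mean of the others, as were 49% of all expressed names and 77.3% of those at 100 TPM or more.

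**Figure D2:**
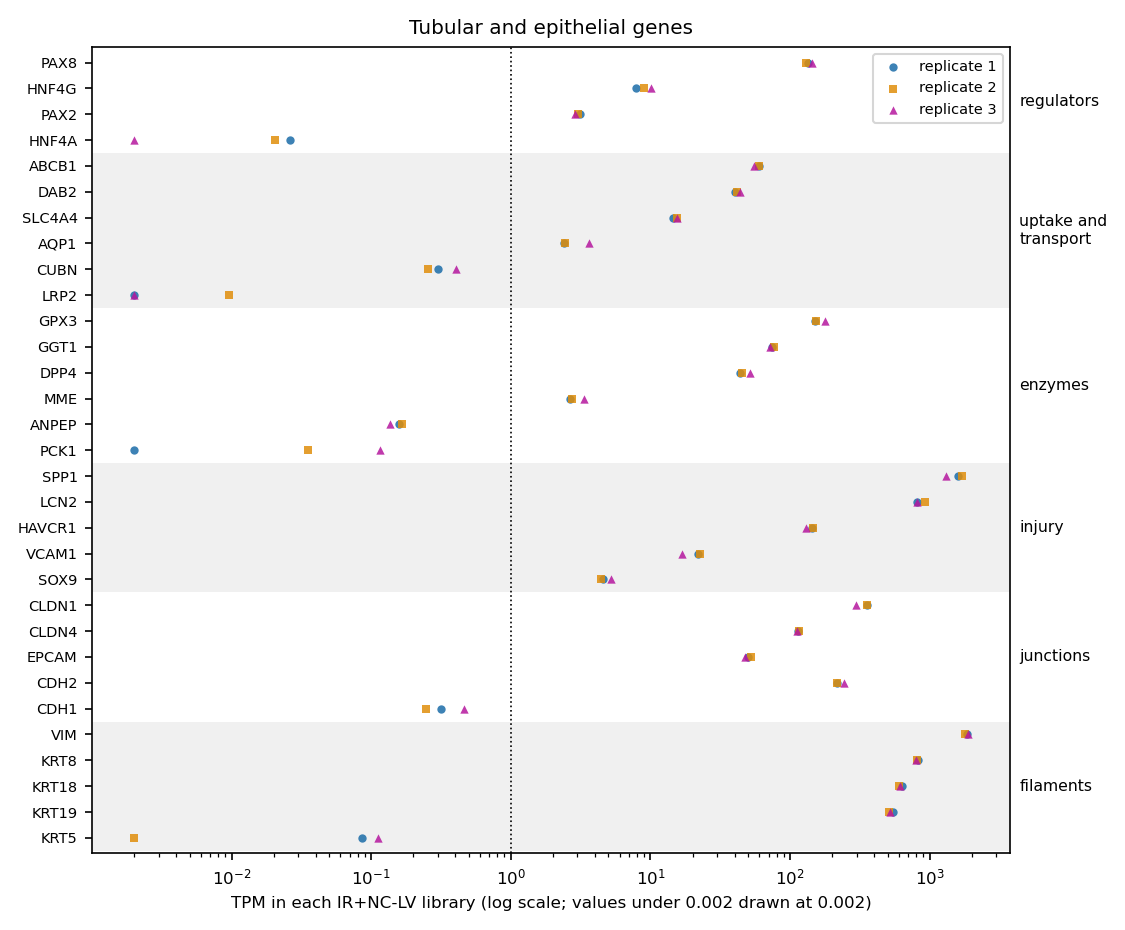
TPM in each of the 3 IR+NC-LV libraries (horizontal axis, log scale, coloured symbols by replicate) for named tubular and epithelial genes, with a dotted line at 1 TPM and values under 0.002 drawn at 0.002. PAX8, GPX3, HAVCR1, CDH2, KRT8, KRT18 and KRT19 lie above 100 TPM in every library, while HNF4A, LRP2, PCK1 and CDH1 lie below 1 TPM in every library.

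The cells held an epithelial skeleton together with mesenchymal genes. The simple-epithelial keratins KRT8, KRT18 and KRT19 had means of 811 ± 14.0, 613 ± 15.2 and 526 ± 18.5 TPM (SD, n = 3). Of the stratified keratins, KRT5 and KRT14 had 2 and 1 counts in all and KRT1 had 0 counts. Of all 17 listed keratins 8 were expressed, 7 of them at 10 TPM or more and 5 at 100 TPM or more. Vimentin, the intermediate filament of mesenchymal cells, had 1845, 1787 and 1891 TPM, which placed VIM above KRT18 in each library by a mean of 1.59 ± 0.03 on the log2 scale of TPM (SD, n = 3).

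Junction genes were split in the same way. Claudin 1 (CLDN1) had 356, 355 and 297 TPM, and the catenins CTNNA1 and CTNNB1 had means of 303 and 264 TPM. EPCAM stood at 49.9 ± 2.50 TPM and CLDN4 at 113 TPM. E-cadherin (CDH1) had 8, 8 and 9 counts, a mean of 0.343 ± 0.109 TPM, against 218, 217 and 241 TPM for N-cadherin (CDH2). The CDH2 to CDH1 ratio was 9.40 ± 0.37 on the log2 scale (SD, n = 3). Of the 23 junction genes 19 were expressed. CTNND1, TJP1, OCLN and CLDN7 read 2.97, 5.42, 0.623 and 0.0633 TPM. For CTNND1, 88.5% of the exon bases lie in the listed readthrough gene TMX2-CTNND1, and the other 3 have 2 or 3 listed copies. The part of copies and shared bases in those levels was not tested. Without such members the median of the junction list was 49.9 TPM, against 13.0 TPM with them.

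Among the regulators of epithelial state, ELF3 had 144, 142 and 125 TPM and KLF5 had 74.9, 65.3 and 101 TPM. GRHL2 had 0 counts, which allows at most 0.0918 TPM, and the splicing factor ESRP1 stood at 0.338 TPM. The repressors of the epithelial program SNAI2, SNAI1, ZEB1, ZEB2 and TWIST1 stood at 88.4, 33.1, 25.2, 17.9 and 17.5 TPM. Fibronectin (FN1) had 1898, 1706 and 2117 TPM, and the matrix glycoprotein SPARC had 912, 886 and 925 TPM. Interstitial collagens were low, with COL1A1 at 10.6 TPM, COL3A1 at 0.544 TPM and COL1A2 at 1 count in all. Smooth muscle actin (ACTA2) stood at 1.55 TPM. PRRX1, CDH11 and TWIST2 had 0 counts.

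Basement membrane genes were expressed as a set, 16 of 19, with a median of 41.6 TPM. The laminin chain LAMC1 had 319, 322 and 322 TPM, and COL4A2 and LAMB1 both had means of 289 TPM. The ratio of COL4A1 to COL1A1 was 3.14 ± 0.16 on the log2 scale (SD, n = 3). COL4A3 and COL4A4, chains of the mature glomerular membrane, stood at 0.190 and 0.0771 TPM.

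The secretory program was led by CXCL8, which codes interleukin 8, a neutrophil attractant. Its 5338, 5890 and 4015 TPM put it above every other secreted factor listed in each library, although replicate 3 was lower than both others, and its ratio to IL6 was 4.97 ± 0.25 on the log2 scale (SD, n = 3). CSF2, the granulocyte and macrophage growth factor, had 638, 641 and 494 TPM. CXCL2 had 530, 461 and 443 TPM and CXCL3 had 238, 255 and 257 TPM. IL6 had 169, 159 and 154 TPM, with IL32, IL11 and LIF at 255, 101 and 100.2 TPM. CXCL5 had 42.8, 48.6 and 26.6 TPM.

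Other cytokines that are often named with senescent cells were scarce. CXCL1 had 9, 10 and 3 counts, a mean of 1.12 TPM, although it lies in the same chromosome 4 cluster as CXCL8, CXCL2 and CXCL3 and also binds CXCR2. IL1B stood at 0.659 TPM, CCL2 at 5.87 TPM, IL1A at 6.18 TPM and CXCL12 at 0.0236 TPM. CCL7 had 0 counts. MIF was also listed at 0 counts, but all of its exon bases lie in the listed antisense gene MIF-AS1, so nothing can be read from it. TNF had 1 count over 8 listed copies, and nothing can be read from it either. All of the 100-base stretches of the longest annotated CXCL1, CXCL2, CXCL3 and CXCL8 transcripts are found in no other annotated gene, and each of the 4 genes is listed once.

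The promoters of these 4 neighbours are shown because their genes differed so much in level. Each sequence gives the 250 bases before the annotated start on the gene's own strand, from RefSeq on GRCh38.p14, with the letters GGAATTTCC in capitals. That word is a form of the kB site bound by NF-kB and was searched on both strands. All 4 windows held it, and of 27305 annotated promoters of that length 0.428% did. The bases around the word were nearly the same in CXCL1, CXCL2 and CXCL3, so the 4 are not independent, and no enrichment was tested.
CXCL8, chr4:73740319-73740568, + strand: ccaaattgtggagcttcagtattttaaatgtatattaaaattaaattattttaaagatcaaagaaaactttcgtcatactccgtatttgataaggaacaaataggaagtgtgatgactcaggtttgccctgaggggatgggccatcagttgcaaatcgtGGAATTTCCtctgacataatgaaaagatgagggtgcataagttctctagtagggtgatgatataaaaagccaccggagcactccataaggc
CXCL2, chr4:74099196-74099445, - strand: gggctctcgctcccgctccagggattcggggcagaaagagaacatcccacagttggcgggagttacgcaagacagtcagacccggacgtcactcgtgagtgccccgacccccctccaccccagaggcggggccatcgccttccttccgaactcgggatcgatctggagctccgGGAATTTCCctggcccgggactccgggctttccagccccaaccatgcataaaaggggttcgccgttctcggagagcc
CXCL3, chr4:74038690-74038939, - strand: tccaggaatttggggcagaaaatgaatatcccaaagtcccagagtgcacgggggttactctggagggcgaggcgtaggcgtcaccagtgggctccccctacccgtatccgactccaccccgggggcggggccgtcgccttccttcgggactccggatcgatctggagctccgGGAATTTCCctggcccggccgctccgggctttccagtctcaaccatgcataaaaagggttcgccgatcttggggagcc
CXCL1, chr4:73869143-73869392, + strand: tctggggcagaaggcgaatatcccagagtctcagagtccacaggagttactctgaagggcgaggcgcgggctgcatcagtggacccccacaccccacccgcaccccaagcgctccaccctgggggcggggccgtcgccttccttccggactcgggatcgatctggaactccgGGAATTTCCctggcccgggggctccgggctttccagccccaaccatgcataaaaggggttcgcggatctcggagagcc
The word began 91 bases before the start in CXCL8, 77 bases before it in CXCL2 and 78 bases before it in CXCL3 and in CXCL1. CXCL1, at 1.12 TPM, thus carried the word at the same place as CXCL3, at 250 TPM. The word TGANTCA, a form of the AP-1 site also searched on both strands, occurred in CXCL8 only, 137 bases before the start, and in 6.60% of all promoters of that length. A match in these letters is a description of the sequence and says nothing of binding.

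Growth factor genes were broadly expressed, 27 of 30, with a median of 38.8 TPM. CCN1, a matrix protein and integrin ligand, had 1365, 1396 and 1257 TPM. The EGF receptor ligand EREG had 435, 402 and 563 TPM, and its relatives HBEGF and AREG stood at 179 and 128 TPM. INHBA, the activin A subunit, had 407, 402 and 468 TPM. TGFB2 stood above TGFB1, at 106 against 65.1 TPM. GDF15 had 133, 134 and 116 TPM, and VEGFA had a mean of 236 TPM. IGF1 and HGF were near 0, at 0.0605 and 0.0241 TPM. IGF2 was listed at 0 counts, with 75.1% of its exon bases shared with the listed gene INS-IGF2.

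Among IGF binding proteins, IGFBP7 had 432, 419 and 394 TPM and IGFBP3 had 282, 301 and 447 TPM. IGFBP3 thus stood higher in replicate 3 than in both others, with a ratio of highest to lowest normalised CPM (a count scaled to the TMM effective library size) of 1.49. IGFBP2 was near absent at 4 counts in all.

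Proteases and their inhibitors held 22 expressed genes of 24, and the libraries differed in many of them. The urokinase gene PLAU had 434, 430 and 341 TPM. MMP7 had 346, 385 and 196 TPM and so was lowest in replicate 3. MMP1, the interstitial collagenase, had 84.1, 78.8 and 185 TPM, and MMP13 had 57.4, 59.0 and 105 TPM, both highest in replicate 3. The highest over lowest CPM was 2.17 for MMP1 (adjusted p = 1.09e-103) and 2.13 for MMP7 (adjusted p = 2.09e-85, both by the chi-square test of homogeneity adjusted by Benjamini-Hochberg). Both lie in the metalloproteinase cluster of chromosome 11 on hg38, MMP7 at chr11:102520508-102530747 and MMP1 at chr11:102789919-102798160. Of 22 expressed members 10 spanned 1.5-fold or more, where 9.82% of all expressed names did.

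**Figure D3:**
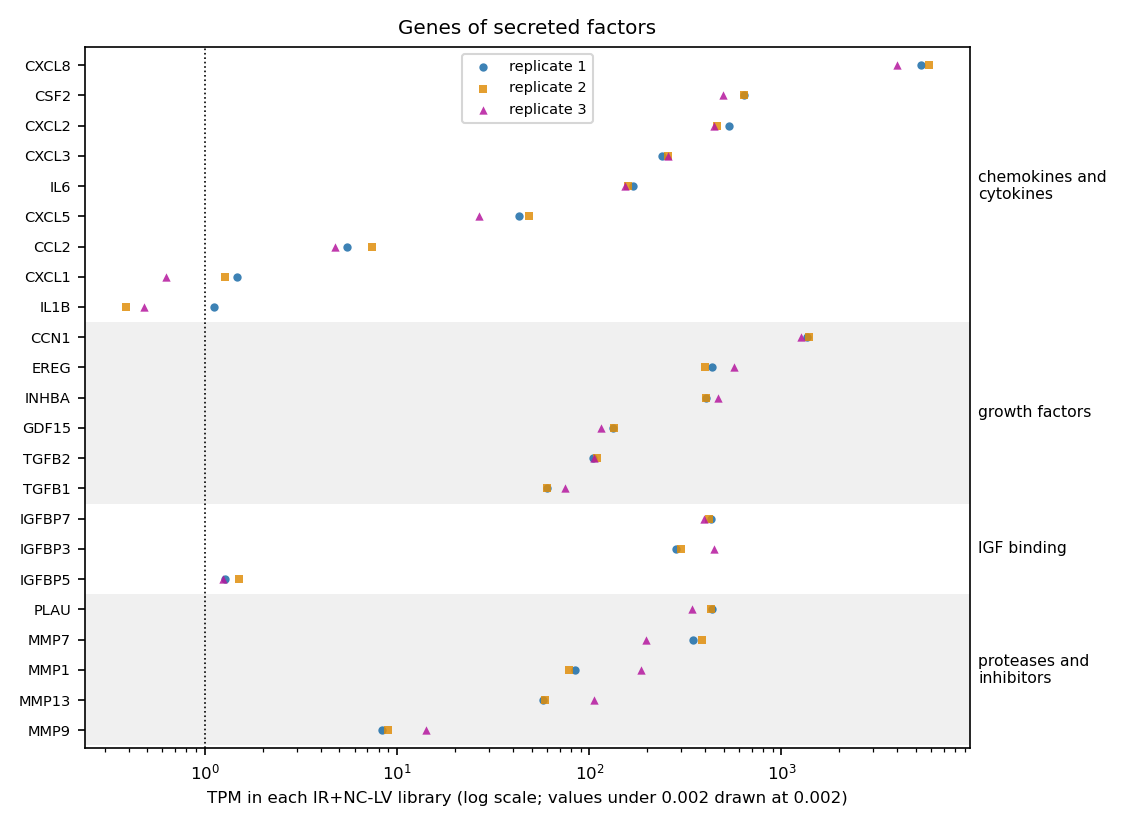
TPM in each of the 3 IR+NC-LV libraries (horizontal axis, log scale, coloured symbols by replicate) for named genes of secreted factors, with a dotted line at 1 TPM. CXCL8 lies at 4015 TPM or more in every library, CXCL1 near 1 TPM, and replicate 3 stands apart for MMP1, MMP13, MMP7 and CXCL5.

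The machinery that exports these products was fully expressed. All 31 secretory pathway genes were expressed, 28 of them at 100 TPM or more, with a median of 349.8 TPM. The endoplasmic reticulum chaperone HSP90B1 had 2201, 2350 and 2295 TPM and calreticulin (CALR) had 2037, 2094 and 1930 TPM. The list held 1.61%, 1.65% and 1.59% of all TPM. Genes of the unfolded protein and ATF4 response had a median of 56.6 TPM. Of its 13 expressed members 8 were higher and 5 lower in replicate 3 than in the mean of the others. Over all expressed names 49% were lower. Among the 8 were DDIT3, TRIB3 and ATF3, at 198, 98.0 and 93.4 TPM in replicate 3. The other libraries had 156 to 169, 58.4 to 67.3 and 54.1 to 65.7 TPM for these.

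Cell cycle genes were expressed throughout in these cells, 7 days after the dose. All 36 mitosis genes were expressed, 33 of them at 100 TPM or more, with a median of 188 TPM. CKS2, a cofactor of cyclin-dependent kinases, had 1272, 1307 and 930 TPM. Cyclin B1 (CCNB1) had 641, 625 and 586 TPM, and TOP2A had 587, 636 and 587 TPM. The proliferation marker MKI67 had 127, 123 and 143 TPM. Bulk libraries do not show whether many cells held a little or few cells held much of these transcripts.

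DNA replication genes were expressed in 36 of 37 cases, with a median of 79.6 TPM. PCNA, the replication clamp, had 504, 518 and 516 TPM, and the helicase subunits MCM4 and MCM7 had means of 262 and 261 TPM. E2F2, with 2 listed copies, was the member under the threshold at 0.813 TPM.

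Inhibitors of the cycle were expressed beside these. CDKN1A, coding p21, had 70.7, 72.0 and 74.3 TPM, with counts that differed by no more than counting error (adjusted p = 0.624, chi-square test of homogeneity). CDKN2A had 79.9, 81.2 and 73.5 TPM and CDKN2B had 25.8, 21.7 and 33.6 TPM. CDKN1A was below CCNB1 in every library, with a mean log2 ratio of -3.09 ± 0.10 (SD, n = 3). CDKN1A and CDKN1B were close, at 72.3 and 66.2 TPM. Lamin B1 (LMNB1), which is lost in many senescent cells, had a mean of 176 TPM.

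The 27 p53 target genes spread widely around a median of 30.6 TPM. PLK2 had 1567, 1534 and 1709 TPM and GADD45A had 562, 476 and 730 TPM. PMAIP1 and BAX, which promote apoptosis, stood at 221 and 152 TPM. MDM2 had 33.8, 30.9 and 36.6 TPM, BTG2 stood at 8.59 TPM, and SPATA18 at 0.777 TPM was the member under the threshold.

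Genes of glycolysis and mitochondrial respiration had list medians above that of all expressed names, and those of gluconeogenesis and fructose use had a median below it. Of 21 glycolysis genes 20 were expressed, with a median of 171 TPM (260.4 TPM over the members listed once with under 50% of their exon bases shared), and the list held 1.72%, 1.76% and 1.96% of all TPM. Enolase 1 (ENO1) had 2333, 2376 and 2728 TPM and pyruvate kinase PKM had 1141, 1135 and 1273 TPM. The liver and kidney relative of PKM, PKLR, was listed at 0 counts. PKLR has several listed copies or shares 50% or more of its exon bases, so nothing can be read from it. LDHB had 1920, 1842 and 1790 TPM. LDHA read 83.9, 88.2 and 135 TPM over 2 listed copies, and the copy on chromosome 11 held 42, 63 and 49 counts against 1040, 1391 and 1296 for the copy on a scaffold. ALDOA read 13.0 TPM, with 65.1% of its exon bases shared with the listed gene LOC112694756. No order between LDHA and LDHB, or of ALDOA against other enzymes, can therefore be read from these values. HK1 stood above HK2 in every library, with a mean log2 ratio of HK2 to HK1 of -2.26 ± 0.01 (SD, n = 3).

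Of 13 gluconeogenesis and fructose genes 7 were expressed, with a median of 1.30 TPM. PCK1 had 3 counts in all, G6PC1 had 0, and FBP1 stood at 0.292 TPM. The mitochondrial enzyme PCK2 read 3.71 TPM, but it has several listed copies, so no level can be read from it. G6PC3, which is expressed in most tissues, was the only member at 10 TPM or more, with a mean of 66.2 TPM.

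The citric acid cycle list was expressed in full, 25 of 25, with a median of 96.4 TPM. SDHB stood at 394 ± 13.3 TPM (SD, n = 3) and citrate synthase (CS) had 307, 295 and 326 TPM. All 59 nuclear-coded subunits of the respiratory chain were expressed, with a median of 149 TPM. ATP5F1B, the catalytic subunit of ATP synthase, was close in all libraries at 1522, 1503 and 1502 TPM. ATP5ME, at 145, 165 and 103 TPM, and NDUFA1, at 338, 368 and 240 TPM, were lower in replicate 3. In all, 51 of the 59 were lower in replicate 3 than in the mean of the others, where 49% of all expressed names and 77.3% of those at 100 TPM or more were. Genes coded in the mitochondrial genome were not analysed here.

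Fatty acid oxidation genes were expressed in 25 of 28 cases, with a median of 41.3 TPM. ACADVL, of the first step for very long chains, had 384, 394 and 421 TPM, and CPT1A, which admits fatty acids to mitochondria, had 801, 943 and 703 counts. PPARA and PPARGC1A, regulators of this pathway, stood at 5.02 and 5.36 TPM. All 25 cholesterol synthesis genes were expressed, with a median of 40.9 TPM. Fatty acid synthesis was led by ACLY at 283 ± 8.31 TPM, with FASN at 36.9 ± 0.870 TPM (SD, n = 3). Nucleotide and pentose phosphate genes had a median of 108 TPM, with PRPS1 at 398 TPM the highest.

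Both chains of the cystine exchanger stood higher in replicate 3 than in both other libraries. SLC7A11, its transport subunit, had 19.8, 17.9 and 38.2 TPM, and its partner chain SLC3A2 had 188, 166 and 265 TPM. Thiol and iron defence genes were all expressed, 23 of 23, with a median of 321 TPM. FTL, TXN and PRDX1 had means of 5841 ± 73.0, 2000 ± 119 and 1819 ± 59.4 TPM (SD, n = 3). Lysosomal genes were also all expressed, 23 of 23, with prosaposin (PSAP) at 1627 ± 68.1 TPM and the cathepsins CTSZ and CTSD at 1336 and 795 TPM.

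Most markers of other cell types were below the threshold for expression. Of 8 endothelial markers and 6 adipocyte and erythroid markers none was expressed, the highest being ERG at 0.792 TPM. Of 10 leukocyte markers 3 were expressed, CSF1R, CD14 and ITGAM, at 5.23, 4.41 and 2.91 TPM, while MS4A1 and HLA-DRA (8 listed copies) had 0 counts and PTPRC (2 listed copies) had 3 counts in all. No level can be read from the names with several copies, and without such names the median of the leukocyte list was 0.534 TPM, against 0.0545 TPM with them. Of 7 fibroblast and pericyte markers 3 were expressed, LUM at 123, 126 and 116 TPM, COL1A1 at 10.6 TPM and RGS5 at 7.92 TPM, while DCN, PDGFRA and PDGFRB stood at 0.0801, 0.0899 and 0.829 TPM. Of 6 hepatocyte markers CYP3A4 alone was expressed, at 1.24 TPM. The synaptic genes SYT1 and SNAP25 had means of 37.4 and 23.4 TPM, with RBFOX3 at 0.0907 TPM.

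The 3 libraries agreed closely in rank and less closely in detail. Over the 13605 expressed names, Spearman's rho of normalised CPM was 0.996 for replicates 1 and 2, 0.993 for 1 and 3, and 0.992 for 2 and 3 (across genes, which are not independent replicates). The median absolute difference was 0.07 on the log2 scale for replicates 1 and 2, and 0.14 and 0.15 for the pairs with replicate 3. The biological coefficient of variation, the spread between libraries beyond counting error as estimated by edgeR, was 0.0948 over 14300 names.

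Replicate 3 stood apart from the others. Of 16127 names tested, 4184 (25.9%) had counts that differed among the libraries beyond counting error (chi-square test of homogeneity against TMM effective library sizes, Benjamini-Hochberg adjusted p under 0.05). Without replicate 3 this count fell to 588 of 16382, while without replicate 1 it was 4242 and without replicate 2 it was 3108. The coefficient of variation without replicate 3 was 0.0538. Among the 4053 expressed names that passed the test, replicate 3 was the library farthest from the median of the 3 in 77.0%, against 54.9% over all expressed names. The test is most sensitive for abundant genes, so the 70 of 75 ribosomal protein genes past it are to be read with their size. In replicate 3, 73 of the 75 were lower, as were 49% of all expressed names and 77.3% of those at 100 TPM or more. Their median difference was -0.177 on the log2 scale. It was -0.175 over all 718 names of at least 100 TPM in the shortest of 5 equal classes by exon bases. The ribosomal list held 10.8%, 11.1% and 10.3% of all TPM.

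The difference of replicate 3 followed level and gene length. Its median difference from the mean of the other two was 0.16 on the log2 scale for names of 1 to 3 TPM and -0.15 for names of 300 to 1000 TPM. By length it was -0.08 for the shortest of 5 equal classes of names and 0.07 for the longest. Replicate 2 against replicate 1 gave 0.01 and -0.01 for the same length classes, and by level it ran the other way, from -0.07 at 1 to 3 TPM to 0.03 at 300 to 1000 TPM. Because TPM divides by length, replicate 3 also read higher by TPM than by CPM, as for CDH2, which spanned 217 to 241 TPM while its highest over lowest CPM was 1.04. Replicate 3 was the shallowest library, and names entered only with at least 10 counts in every library. A name with few counts could thus pass more readily when its count in replicate 3 was high. At 1 to 10 TPM the median difference was 0.08 in the shortest length class and 0.11 in the longest. The parts of depth and of this rule in these differences were not tested.

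Shifts of this size are small beside the levels of most programs. The range over the 3 libraries, the highest over the lowest CPM, had a median of 1.15 over expressed names and reached 1.5 in 1336 names (9.82%). Among the mitosis genes 1 of 36 reached it, among the DNA replication genes 0 of 36 expressed, and among the secretory pathway genes 0 of 31, where 2.75% of the expressed names at 10 TPM or more did. It was reached by 10 of 22 protease and inhibitor genes, 4 of 13 genes of the unfolded protein and ATF4 response, 4 of 19 cytokines and 7 of 59 respiratory chain genes. The share to set beside these is the 9.82% of all expressed names, because each of these lists has expressed members under 10 TPM. In the same order the lists hold 1, 1, 3 and 4 names with several listed copies.

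The largest ranges belonged to names with more than 1 listed copy. PSME1, a proteasome activator subunit, had 62, 1190 and 567 counts, a 15.3-fold range. PSMB3, a proteasome subunit, had 1912, 2583 and 165 counts, a 10.3-fold range. ATP5IF1, C1R, PCGF2, NEDD8, ZNHIT3, SMARCB1 and FBL were also among the 10 widest, with ranges from 7.41-fold to 14.6-fold, and each of these names has 2 listed copies. Names with more than 1 copy made up 4.13% of the expressed names, and 55.9% of them spanned 1.5-fold or more, against 7.84% of the names listed once. Their median level was 7.14 TPM, against 22.6 TPM for names listed once. For PSME1 all counts lay on the chromosome 14 copy, whereas for ATP5IF1 all 61, 62 and 595 counts lay on a scaffold copy. The part of the copies in these ranges was not tested. Sequence shared with other annotated genes also touches TUBA1B and LDHB, of which 28.9% and 47.7% of 100-base stretches are found in no other gene.

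Among names listed once and with under 50% of their exon bases shared, with at least 5 TPM, at least 20 counts in every library and a pass of the test, chosen after the copies were seen, the widest was CA9, a carbonic anhydrase induced by hypoxia and acidity, with 48, 76 and 115 counts and a 2.91-fold range. CGB5, CBS, CYP1A1, MMP1 and MMP7 were also among the 10 widest, at 2.40-, 2.28-, 2.25-, 2.17- and 2.13-fold. Of these, MMP7 was lower and the others were higher in replicate 3 than in both other libraries. The remaining 4 carry uncharacterized or noncoding names.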

How the data were processed

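RNA-seq files of the 3 IR+NC-LV libraries were used, and the 3 IR+PR-LV files were not. The authors deposited, for each gene entry, the read count and the TPM and FPKM values. Per the submitters' processing notes, reads were handled with CASAVA, counted with featureCounts 2.0.1 on hg38 and analysed with DESeq2 1.16.1. The aligner, annotation and strand setting are not given in the sources used here. Libraries were made with a NEBNext Ultra kit from RNA selected with oligo(dT) beads, so levels of transcripts without a poly(A) tail are not comparable. Deposited TPM and FPKM were reproduced from count and length within 2e-11, so tests used counts.

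Entries sharing a gene name were summed. Counts were scaled by TMM (edgeR 4.0.16, R 4.3.3). Counts of the 3 libraries were compared by a chi-square test of homogeneity for names with at least 5 expected counts in every library, with Benjamini-Hochberg adjustment at 0.05. The test compares these libraries and not conditions, and was tested on simulated data. Lists were described by counts and medians without a test. Promoters came from RefSeq, and stretches of 100 bases were compared between GENCODE v29 transcripts (872 of 876 genes found). Exon overlap was computed from the files' own coordinates.

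Named genes were the 25 highest by TPM, members of lists and pairs where described, and the 10 widest-ranging names past the test with at least 5 TPM and 20 counts in every library. The gene lists and tests were chosen with earlier results of these data known. Intervals and floors (3 counts) cover counting error only. Some members of these lists are not reported here.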

Additional observations from a re-analysis of the deposited data

How the results depend on the processing

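No paired analysis was possible because a single group was described, with no groups to pair. Replicate 3 and the listed copies set the main limits. Leaving out each library in turn gave 588 to 4242 names differing beyond counting error, a coefficient of variation of 0.0538 to 0.117, and 523 to 943 names spanning 1.5-fold or more, the lowest value of each without replicate 3 (742 names spanned 1.5-fold without replicate 2). The other counts moved little under this: 13692 to 13721 names expressed, 23 lists above the median of expressed names in each case, 5 to 6 lists with at least 1% of TPM, and 18 to 19 of 25 pairs with the first gene higher in every library. A floor of 10 TPM left 252 of 9180 names spanning 1.5-fold or more, against 1336. Sharing out counts in place of TPM left 3 lists with at least 1%, against 5. RLE size factors, library totals, thinning to the smallest library, other floors and an adjusted p under 0.01 kept every such count within 1.5 times its value. Chosen after the data were seen, names listed once gave 3774 names beyond counting error, a coefficient of variation of 0.0693 and 1022 names spanning 1.5-fold. Over these settings the median moved by more than the spread between libraries in 23 cases and stayed within it in 182. Leaving out 1 of 3 libraries cannot move a mean share or mean pair ratio beyond that spread, so those cases are not counted. Counts in place of TPM moved the share of 36 lists and not of 5, the ribosomal list from 10.7% to 3.74%. Keeping only the highest copy moved 1 share and not 40. A pseudocount of 1 TPM moved 8 pair ratios and not 15. No pair ratio changed sign. Members at fewer than about 10 counts are known only as low.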

Other observations

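Immediate early genes were unevenly held. FOSL1 and JUN stood at 260 ± 14.1 and 254 ± 14.3 TPM (SD, n = 3), with KLF6 at 207 TPM and DUSP1 at 205 TPM, while FOS had 7.46, 6.92 and 9.18 TPM and EGR1 had 6.80, 6.28 and 10.6 TPM. EGR3 was near absent at 0.121 TPM. Of the long noncoding RNAs, GAS5 had 1145, 1086 and 1175 TPM, with SNHG1, MALAT1 and NEAT1 at 243, 234 and 69.9 TPM and MEG3 at 0 counts.

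Ribosomal protein genes were not all at the level of their complex. RPS10 read 11.3 TPM and RPS9 48.1 TPM, against a list median of 1099 TPM. RPS9 has 10 listed copies, and most of the exon bases of RPS10 lie in the listed readthrough gene RPS10-NUDT3. The 68 members listed once and with under 50% of exon bases shared had a median of 1333 TPM.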
